A study of Arabidopsis thaliana with 6 samples.

Results

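Poly(A) clusters inside noncoding genes and pseudogenes were examined in Arabidopsis seedlings after a dark-to-light transfer. A poly(A) cluster is a group of neighbouring cleavage sites at which a transcript received its poly(A) tail. A cluster was included when it lay on chromosomes 1 to 5, inside exactly 1 gene annotated as lncRNA, ncRNA, misc_RNA, antisense_RNA, pseudogene or transcribed_pseudogene, and more than 200 nt from every protein-coding gene. This selection held 4149 of 217870 clusters, in 1086 of the 9131 nuclear genes of these 6 biotypes. Reads were summed by gene and strand into 1212 units, and 126 genes had reads on both strands. All plants were wild-type Col-0 and had been grown on plates under constant white light for 1 to 2 weeks. Every seedling was then kept in darkness for 48 h. The 3 Light libraries came from seedlings moved to light for 6 h and the 3 Dark libraries from seedlings kept in darkness for those 6 h. Whole seedlings were extracted. The labels do not say whether the 3 libraries of a group came from separate plates or extractions, so p-values measure the spread between these libraries, which may be technical. In bulk RNA of this kind, fewer cells of a type and less RNA per cell cannot be told apart.

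Long noncoding RNAs are mostly made by RNA polymerase II, and many are capped and polyadenylated like mRNAs. A pseudogene is a copy of a gene that no longer encodes the full product; a transcribed pseudogene is one for which the annotation has transcript evidence. In plants, poly(A) tails are also found on rRNA precursor fragments and on extended snoRNA precursors, where the tail marks RNA handled by the nuclear exosome, the complex that trims and degrades RNA from its 3′ end. The libraries were made by 3'READS+, which captures polyadenylated RNA and sequences the base next to the tail, so a read reports a 3′ end and its strand.

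The units held 636152 reads, which was 0.772% of the nuclear reads. Most were shallow: 310 units rested on 1 read in total, and 697 units had fewer than 10 reads. Among the clusters, 1287 rested on 1 read and 2424 on fewer than 5. Reads were concentrated in few genes. The most abundant unit held 47.1% of them and the 10 most abundant held 72.8%. The lncRNA biotype had 344 units and 54.8% of the reads, ncRNA had 129 units and 25.1%, misc_RNA had 234 units and 3.82%, transcribed_pseudogene had 226 units and 9.57%, pseudogene had 278 units and 6.68%, and antisense_RNA had 1 unit and 0.0308%. A library held 1730 to 2031 of the clusters with at least 1 read. The mean was 1969 ± 64.6 clusters in Light and 1825 ± 83.7 in Dark (SD, n = 3; exact two-sided permutation test, p = 0.1). With 3 libraries against 3, 0.1 is the smallest p that this test can give. In Light 681 ± 12.4 units had reads and in Dark 668 ± 29.5 (exact permutation p = 0.5), so the number of units detected did not separate the groups.

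Noncoding units took a larger share of the nuclear reads in Dark than in Light. The share was 0.470, 0.429 and 0.457% in Light replicates 1, 2 and 3, and 1.16, 0.876 and 1.19% in Dark replicates 1, 2 and 3. All Dark libraries lay above all Light libraries, with Dark replicate 2 the lowest of the Dark group. The means were 0.452 ± 0.0209% and 1.08 ± 0.174% (SD, n = 3), so that Dark exceeded Light 2.38 times (exact permutation p = 0.1, the smallest possible). One lncRNA gene, AT3G06355, supplied much of this gap. Without it the shares were 0.332 ± 0.00402% in Light and 0.482 ± 0.0450% in Dark, 1.45 times as much, again with no overlap (exact permutation p = 0.1).

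By biotype, the shares of ncRNA genes and transcribed pseudogenes were higher in Dark, but few genes held much of each. The share in ncRNA genes was 0.123 ± 0.00441% in Light and 0.261 ± 0.0211% in Dark, and the share in transcribed pseudogenes was 0.0499 ± 0.00265% and 0.0968 ± 0.0118%. Dark exceeded Light 2.12 times in the former and 1.94 times in the latter. Of 159866 reads in ncRNA genes, AT2G14878 held 45814, GUT15 held 19627, AT4G36648 held 18795 and AT1G69252 held 14611. The transcribed pseudogene AT1G79245 held 25825 of the 60905 reads of its biotype. Each of these genes was lower in Light, and the shares without them were not computed, so both ratios may rest largely on them. The share in pseudogenes was 0.0561 ± 0.00288% in Light and 0.0474 ± 0.00704% in Dark, but this order depends on the scaling: with TMM factors, the pseudogenes summed to 492 ± 32.0 CPM (counts scaled to library size) in Light and 539 ± 59.4 CPM in Dark, with overlap. The order for lncRNA genes depended on the single locus AT3G06355: 0.191 ± 0.0167% in Light and 0.643 ± 0.134% in Dark with it, but 0.0712 ± 0.000925% and 0.0482 ± 0.00339% without it. Shares of these 4 biotypes did not overlap between the groups (exact permutation p = 0.1 each). For misc_RNA the libraries overlapped, at 0.0309 ± 0.00120% in Light and 0.0281 ± 0.00228% in Dark (exact permutation p = 0.2), and with TMM factors the order turned, at 270 ± 8.04 CPM in Light and 320 ± 14.2 CPM in Dark. For ncRNA genes, transcribed pseudogenes, antisense_RNA and lncRNA genes with or without AT3G06355, the order was the same under both scalings. Clusters that lay inside several noncoding genes at once, which are not members, held 0.0684 ± 0.00475% in Light and 0.0701 ± 0.00390% in Dark (exact permutation p = 0.8).

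**Figure D1:**
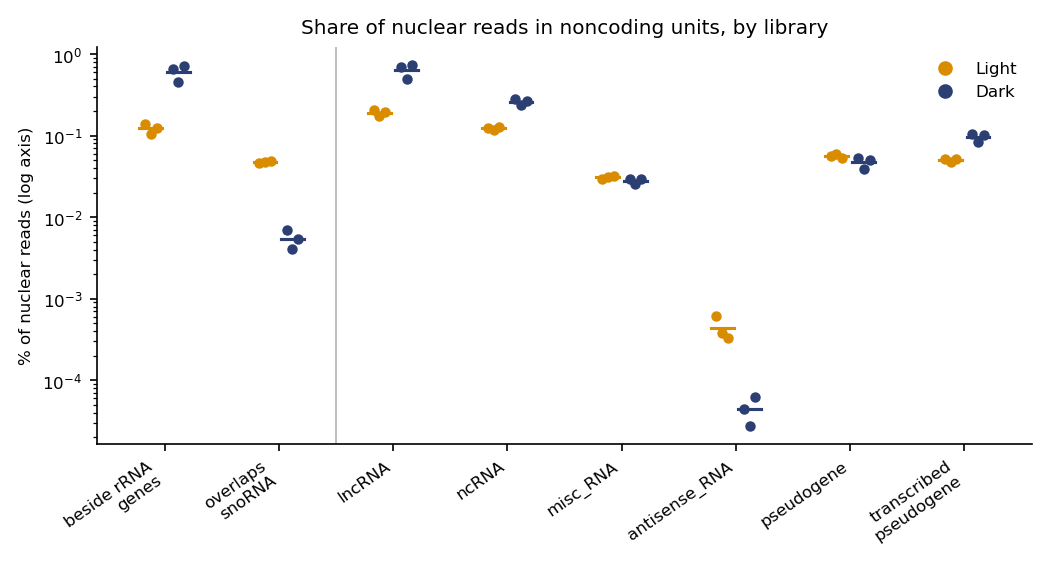
Percent of nuclear reads (log axis) in each of 6 libraries, for the 6 biotypes and, left of the grey line, for 2 sets drawn from them by position, genes near rRNA genes and genes that overlap a snoRNA gene; bars are group means. Light libraries sit near 0.122% and Dark libraries near 0.604% beside rRNA genes, while the snoRNA set is reversed, at 0.0474% in Light and 0.00542% in Dark.

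AT3G06355, annotated as an lncRNA of 502 nt, lies in the ribosomal RNA unit of chromosome 3. Nearly all of its reads, 99.96%, ended at position 14199675 on the plus strand (TAIR10), between the genes annotated for 18S rRNA (AT3G41768) and 5.8S rRNA (AT3G41979). These rRNAs are cut from 1 long precursor, and the stretches between them are spacers that processing removes. Levels are given in CPM, counts scaled to each library's nuclear total times its TMM factor. The level was 1201, 896 and 1047 CPM in Light and 7129, 5325 and 7807 CPM in Dark. Every Dark library was far above every Light library. The means were 1048 ± 152 and 6754 ± 1283 CPM (SD, n = 3), a log2 fold change of −2.69 ± 0.16 (SE) in Light against Dark (edgeR quasi-likelihood test, adjusted p = 3.33e-09). rRNA genes exist in many near-identical copies, so the copy of origin of these reads is uncertain.

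A neighbouring misc_RNA gene, AT3G06365, covers the region downstream of the 5.8S gene on the same strand. It was at 27.5, 21.7 and 22.9 CPM in Light and at 103, 84.6 and 107 CPM in Dark. It fell with no overlap between groups, by 2.03 on the log2 scale (SE 0.14, adjusted p = 1.00e-08). Its 26 clusters were more spread, with 59.4% of reads at position 14201565. In all, 6 units lay within 5000 nt of an rRNA gene, a set recognised after its values had been seen and made up almost wholly of AT3G06355. These 2 units were the only ones of it that could be tested. As a description, the set held 0.122 ± 0.0179% of nuclear reads in Light and 0.604 ± 0.133% in Dark.

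Unit by unit, falls outnumbered rises. Of 1212 units, 279 had enough reads to be tested, and the other 933 did not pass the filter on low counts. At an adjusted p under 0.05, 59 units rose in Light, 126 fell and the remaining 94 were not called. Among all 13011 gene and strand units tested together, 71.4% were called, 36.5% higher and 35% lower. The noncoding share called, 66.3%, was therefore near the background, while its split between directions was not: 68.1% of the noncoding calls were lower in Light, against 49.0% over all units. The median log2 fold change was −0.47 over the noncoding units and 0.04 over all units. With library totals in place of TMM factors the calls became 86 higher and 95 lower, or 52.5% lower, against 35.2% over all units; the medians were then −0.10 and 0.42. The scaling thus shifts every unit by a like amount, and the direction of units near 0 depends on it.

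Groups of libraries did not overlap in 193 of the 279 tested units, where 74.4% of all units tested were without overlap. A call of at least 2-fold was reached by 52 higher and 103 lower units, together 55.6%, against 47.8% of all units. By biotype, the ncRNA genes had 20 higher and 35 lower of 70 tested, with a median log2 fold change of −0.68. The lncRNA genes had 17 higher and 29 lower of 73. That balance was not stable: it became 7 higher and 28 lower without genes near rRNA or over snoRNA genes, and 14 higher and 10 lower of 38, with a median of 0.31, for clusters at least 500 nt from protein-coding genes. The misc_RNA genes had 7 higher and 13 lower of 37. Transcribed pseudogenes had the fewest rises for their number, with 7 higher and 31 lower of 59 and a median of −0.76. Pseudogenes had 7 higher and 18 lower of 39, with a median of −0.46. The 1 antisense_RNA unit, AT4G00975, was higher.

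**Figure D2:**
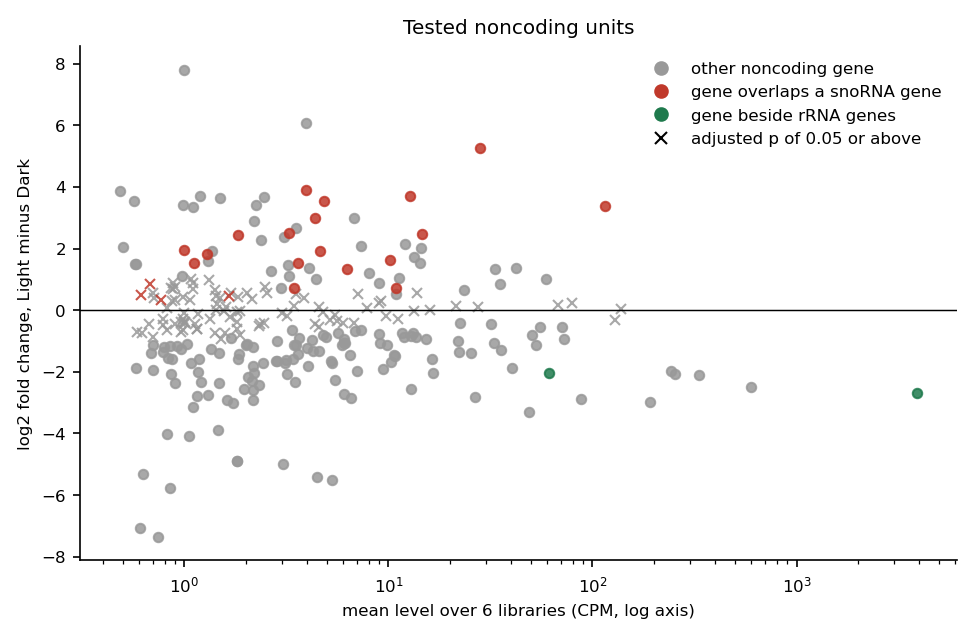
Log2 fold change, Light minus Dark, against the mean level over 6 libraries (CPM, log axis) for the 279 tested noncoding units; circles passed an adjusted p of 0.05 and crosses did not. The 22 units whose gene overlaps a snoRNA gene (red) all lie above 0, and both units near rRNA genes (green) lie below.

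Genes that overlap snoRNA genes moved opposite to the majority. snoRNAs are short RNAs that guide chemical modification of rRNA in the nucleolus, and plant snoRNAs are often transcribed in clusters as a joint precursor. This set was recognised after its values had been seen, so its counts are a description with no test of the set. Of 34 units whose gene overlaps at least 1 annotated snoRNA gene, 22 were tested. Of these, 18 rose in Light, 0 fell and 4 were not called; all 22 log2 fold changes were above 0, from 0.33 to 5.25, with a median of 1.86. Together the 34 units held 0.0462, 0.0478 and 0.0482% of the nuclear reads in Light and 0.00689, 0.00402 and 0.00534% in Dark. Light exceeded Dark 8.75 times, and the groups did not overlap. A single unit, AT1G05913, held 10419 of the set's 21285 reads, and the ratio without it was not computed. The remaining 255 tested units, which neither overlap a snoRNA gene nor lie near an rRNA gene, had 41 higher and 124 lower, with a median of −0.65.

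AT1G05913 was the most abundant of the set, an lncRNA gene of 318 nt on the minus strand of chromosome 1 that overlaps 2 snoRNA genes. It had 199, 215 and 219 CPM in Light and 24.4, 15.1 and 21.0 CPM in Dark. All Light libraries were far above all Dark libraries, and the log2 fold change was 3.39 ± 0.16 (SE, adjusted p = 3.41e-10). Of its reads, 99.9% ended at position 8756367, 6 nt before the downstream edge of a snoRNA gene, as read on the unit's strand. AT1G16635, an ncRNA gene overlapping 1 snoRNA gene, was at 55.7, 57.6 and 50.6 CPM in Light and 1.58, 1.40 and 1.31 CPM in Dark. Its libraries were tight within groups and 38.2-fold apart (log2 fold change 5.25 ± 0.16, adjusted p = 2.05e-11), and its main site, position 5686081 on chromosome 1, lay 12 nt beyond the snoRNA edge.

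The same closeness of the site to a snoRNA edge was seen in most of the set. In 17 of the 22 tested units the main site lay within 50 nt of the nearest downstream snoRNA edge, and in 13 within 20 nt. Of the 18 higher units, 15 were among the 17. Downstream is taken from the strand of the reads, because the strand of the snoRNA genes was not known. A gene over several snoRNA genes offers several edges, and the share expected from position alone was not computed. AT1G08103, which overlaps 4 snoRNA genes, had 22.7, 23.4 and 25.3 CPM in Light and 2.65, 0.907 and 1.93 CPM in Dark, and most of its reads ended 4 nt before such an edge. AT1G18745, also with 4, rose from 4.43 ± 1.74 to 24.8 ± 1.88 CPM (adjusted p = 1.34e-07). AT3G02832 had 121, 134 and 151 reads in Light and 11, 11 and 6 in Dark, or 8.87 ± 0.843 and 0.761 ± 0.257 CPM. AT5G06165 was an exception in position, with its main site 121 nt beyond the edge, but it too rose without overlap, from 0.484 ± 0.295 to 7.43 ± 1.43 CPM (adjusted p = 2.61e-07). With clusters within 50 nt of any tRNA, snoRNA, snRNA or rRNA gene left out, 5 units of the set were still called higher and 0 lower, and the whole noncoding selection had 46 higher and 126 lower.

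**Figure D3:**
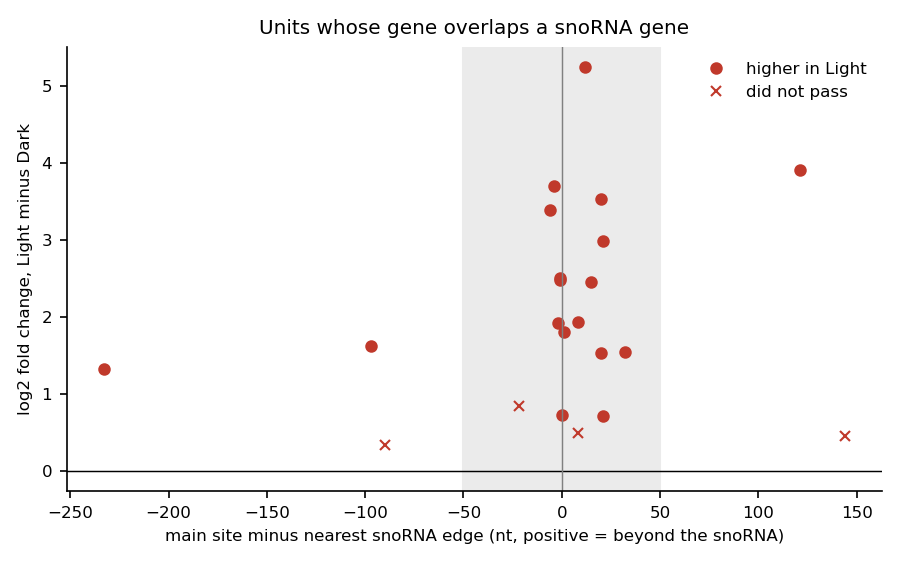
Log2 fold change, Light minus Dark, against the distance from the main poly(A) site to the nearest downstream snoRNA edge (nt, positive beyond the snoRNA). Shown are the 22 tested units whose gene overlaps a snoRNA gene, with downstream taken from the strand of the reads. A single point at −1 nt holds 2 units. Grey marks 50 nt on either side: 17 main sites lie inside it, and all 22 changes are above 0.

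Like AT3G06355, the other 5 of the 6 most abundant members were lower in Light. AT2G14878, an ncRNA gene on chromosome 2, had 179, 196 and 162 CPM in Light and 1082, 981 and 982 CPM in Dark. Its groups were well separated, at a log2 fold change of −2.50 ± 0.12 (SE, adjusted p = 3.23e-10), and 91.4% of its reads ended at position 6393005, 37 nt before the annotated edge. The transcribed pseudogene AT1G79245 was at 131, 115 and 129 CPM in Light and 590, 456 and 577 CPM in Dark. It had the most clusters of all members, 82, and fell with no overlap, by 2.11 on the log2 scale (SE 0.13, adjusted p = 3.20e-09). GUT15, first described as a gene with an unstable transcript, had 91.1, 88.4 and 112 CPM in Light and 446, 341 and 437 CPM in Dark. Every Dark library was above every Light library (log2 fold change −2.07 ± 0.14, adjusted p = 9.97e-09), and its 38 clusters were dispersed, with 16.9% of reads at the main site, position 7995739.

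A further pair of ncRNA genes went the same way. AT4G36648 had 91.1, 84.6 and 117 CPM in Light and 371, 382 and 404 CPM in Dark (log2 fold change −1.98 ± 0.13, adjusted p = 8.97e-09). AT1G69252 had 49.3, 44.1 and 36.1 CPM in Light and 294, 386 and 342 CPM in Dark (log2 fold change −2.98 ± 0.15, adjusted p = 5.40e-10). Neither gene showed any overlap of the groups. The latter ended almost wholly, in 98.2% of reads, 11 nt before its annotated edge.

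Abundant members of other biotypes were mixed. AT2G06950, a pseudogene on chromosome 2, had 150, 144 and 125 CPM in Light and 146, 124 and 138 CPM in Dark. Its groups overlapped throughout (log2 fold change 0.03 ± 0.11, adjusted p = 0.798), and with library totals it would be called higher. The pseudogene AT3G42052 had 91.3, 87.7 and 78.9 CPM in Light and 73.6, 70.8 and 73.9 CPM in Dark; its Light libraries were all above its Dark libraries, but it did not pass (log2 fold change 0.24 ± 0.11, adjusted p = 0.0571), except with library totals or without Light replicate 3. The transcribed pseudogene AT2G20724 fell from 72.7 ± 4.55 to 32.8 ± 1.26 CPM (adjusted p = 4.23e-07), and the misc_RNA gene AT1G09915 rose from 25.3 ± 1.14 to 45.2 ± 4.52 CPM (adjusted p = 2.42e-05). Reads of a pseudogene may be shared with its parent copies, so levels of pseudogenes are uncertain to that extent.

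Among called units without overlap and with at least 2 CPM in the higher group, the 10 with the largest falls and the 10 with the largest rises were taken, so their lack of overlap follows from the choice. The members at the head of the falls had few reads in Light. The transcribed pseudogene AT5G44417 had 2, 5 and 3 reads in Light and 192, 47 and 144 reads in Dark, or 0.220 ± 0.105 and 10.3 ± 6.06 CPM. Dark replicate 2 was far below Dark replicates 1 and 3 and still above all Light libraries (log2 fold change −5.50 ± 0.57, adjusted p = 9.01e-07). The protein-coding gene nearest to its main site is the plant defensin gene PDF1.2, 5323 nt away, which had too few reads to test. The pseudogene AT5G28145 was at 0.263, 0.0672 and 0.255 CPM in Light and 9.12, 6.52 and 10.5 CPM in Dark. It fell by 5.41 on the log2 scale (SE 0.38, adjusted p = 1.67e-08).

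The other members among the 10 largest falls spanned log2 changes from −5.01 to −2.98. The lncRNA AT2G08215 had 8 reads in Light and 219 in Dark, and the nearest protein-coding gene, AT2G28050, fell by a like amount (log2 fold changes −5.01 and −5.08). The misc_RNA AT5G00365 and the transcribed pseudogene AT3G61185 each had 5 reads in Light, against 131 and 130 in Dark. The transcribed pseudogene AT1G03580 fell by 3.90 on the log2 scale, and AT1G03590, which lies 210 nt from its main site and was read on the same strand, fell by 4.20. AT3G00390 (−4.09), AT3G05945 (−3.29), AT3G45638 (−3.03) and AT1G69252 (−2.98) completed the 10. AT3G05945 was the most abundant lncRNA among them, at 8.76, 10.0 and 8.30 CPM in Light and 75.3, 100.1 and 89.5 CPM in Dark.

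Among the largest rises, AOP2 was read in Light alone. AOP2 belongs to the dioxygenase locus that modifies aliphatic glucosinolates, the sulfur-containing defence compounds of this plant family, and its Col-0 copy is annotated as a transcribed pseudogene. It had 26, 25 and 41 reads in Light and 0 in each Dark library, so its level was at least 24.9-fold higher in Light against a floor of 3 reads over the Dark group (adjusted p = 6.58e-06). The ncRNA AT4G12917 had 93, 116 and 149 reads in Light and 2, 1 and 1 in Dark, a 71.9-fold difference (log2 fold change 6.06 ± 0.41, adjusted p = 1.10e-08).

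The other 8 of the 10 largest rises had fitted log2 changes from 3.41 to 5.25. Of these, AT1G16635, AT5G06165, AT1G08103 and AT3G02832 overlap snoRNA genes and are described above, and TAS1C is described below. The transcribed pseudogene AT5G37072 had 102 reads in Light and 6 in Dark (3.71 ± 0.54 on the log2 scale), the misc_RNA AT2G00880 had 210 and 13 (3.68 ± 0.38), and the lncRNA AT1G08757 had 187 and 14 (3.41 ± 0.42). The single antisense_RNA unit, AT4G00975, was at 5.40, 3.36 and 2.87 CPM in Light and 0.498, 0.330 and 0.696 CPM in Dark. It rose without overlap (log2 fold change 2.90 ± 0.39, adjusted p = 1.27e-05). The nearest protein-coding gene, AT4G00980, lies 277 nt from its main site and was read on the same strand. That gene fell by 1.75 on the log2 scale (adjusted p = 0.000741).

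**Figure D4:**
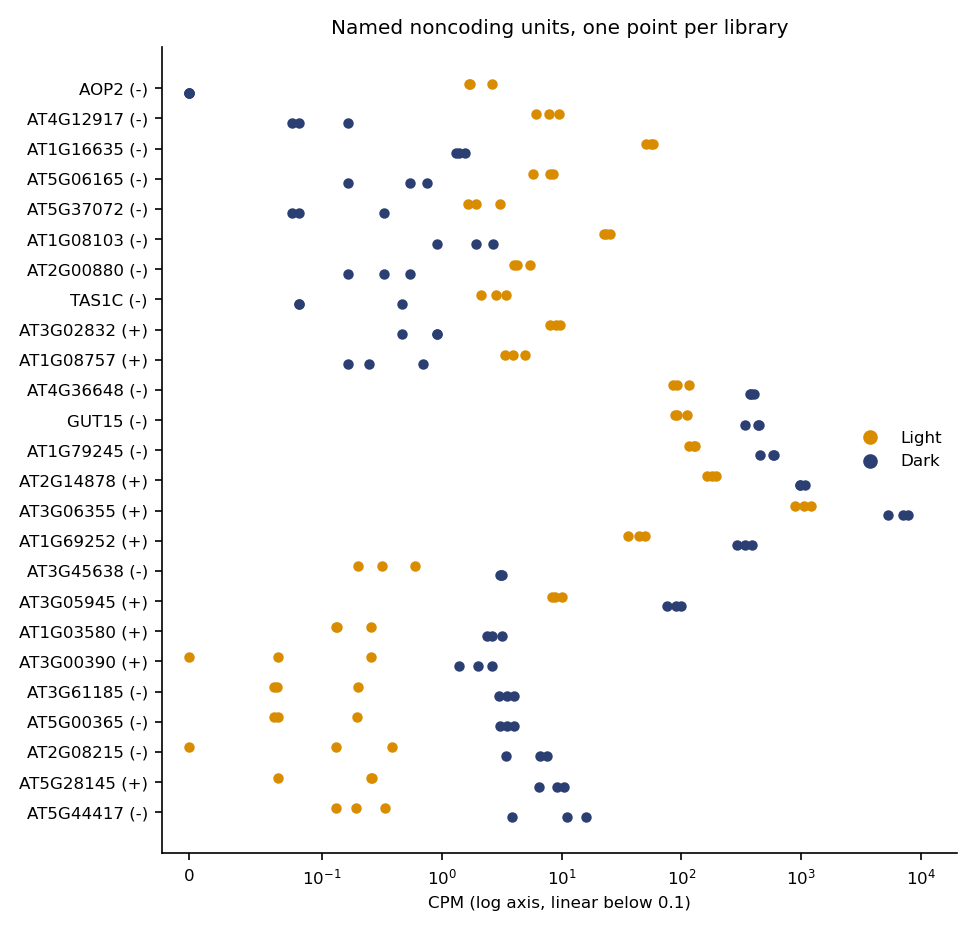
Level in each library (CPM, log axis that is linear below 0.1) of the noncoding units with the 10 largest falls, the 10 largest rises and the 6 highest levels, ordered by log2 fold change with rises at the top; strand is in brackets. The falls and rises were chosen for having no overlap; the 6 highest were not, and all 6 have every Dark point above every Light point. AOP2 is at 0 in all Dark libraries.

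The precursors of trans-acting siRNAs split by family. TAS RNAs are noncoding transcripts cut by a microRNA, copied into double-stranded RNA by RDR6 with SGS3, and diced by DCL4 into small RNAs that silence other genes. TAS1C had 2.11, 3.42 and 2.81 CPM in Light and 0.0829, 0.0825 and 0.464 CPM in Dark. TAS1B had 4.02, 5.57 and 5.87 CPM in Light and 0.995, 0.907 and 1.08 CPM in Dark. Both rose without overlap, TAS1C by 3.64 ± 0.51 (SE, adjusted p = 1.93e-05) and TAS1B by 2.36 ± 0.28 (adjusted p = 4.06e-06) on the log2 scale. TAS1A was at 2.04, 1.61 and 2.23 CPM in Light and 1.16, 0.825 and 0 CPM in Dark. It also passed (log2 fold change 1.58 ± 0.58, adjusted p = 0.0243), but on 90 and 24 reads and not in every fit with 1 library left out: without Dark replicate 3 its adjusted p was 0.0500, without Light replicate 1 it was 0.0644 and without Light replicate 3 it was 0.0826.

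TAS3, whose small RNAs target auxin response factor genes, went the other way. It had 7.05, 8.33 and 9.89 CPM in Light and 15.7, 14.4 and 16.4 CPM in Dark, without overlap (log2 fold change −0.88 ± 0.16, adjusted p = 0.000253). A further 1525 reads on its strand lay up to 200 nt past the annotated gene edge, more than the 961 counted inside, and were not part of the unit. TAS2 was the most abundant of the family, at 123, 101 and 119 CPM in Light and 175, 114 and 139 CPM in Dark. Its groups overlapped and it did not pass (log2 fold change −0.32 ± 0.15, adjusted p = 0.0650), though it did without Dark replicate 2 (adjusted p = 0.00199) and, narrowly, with 1 strand per gene (adjusted p = 0.0496). No member cluster lay in TAS4.

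Of 10 genes of the tasiRNA pathway, 8 could be tested as protein-coding units, where 3 were higher, 2 lower and 3 did not pass; of all protein-coding units tested, 71.5% were called, 36.7% higher and 34.8% lower. HEN1, which methylates small RNAs, rose 3.65-fold (adjusted p = 9.75e-05), AGO7, the Argonaute that acts on TAS3, rose 2.75-fold (adjusted p = 0.00166), and RDR6 rose 2.32-fold (adjusted p = 5.58e-06). DCL1, which makes microRNAs, fell from 2.79 ± 0.466 to 0.417 ± 0.173 CPM (adjusted p = 1.93e-05). SGS3 was at 4.01 ± 1.14 CPM in Light and 3.88 ± 0.290 in Dark (adjusted p = 0.869). The test of these genes is incomplete, because clusters near more than 1 protein-coding gene were left out.

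Other loci described as regulatory RNAs had few or no reads in the selection. AT1G67105 had 13, 10 and 4 reads in Light and 10, 31 and 25 in Dark; the groups overlapped, and the call of lower (adjusted p = 0.0107) was lost without Light replicate 3 (adjusted p = 0.0590). AT4G16355 had 12 reads in all and was not tested. AT1G21529 and AT1G69572 had no member cluster. Clusters within 200 nt of a protein-coding gene are not members, so this does not show that these RNAs were absent. The phosphate-starvation RNA IPS1 is listed as protein-coding in the gene table and is therefore no member. Of 9 genes of the phosphate starvation response, 5 were tested, with 3 higher, 1 lower and 1 that did not pass, a share called near the 71.5% of all protein-coding units. The phosphate transporter gene PHT1;4 rose from 0.503 ± 0.389 to 1.99 ± 0.426 CPM (adjusted p = 0.00190), and PHO1, a phosphate exporter gene, fell from 5.17 ± 0.597 to 1.82 ± 0.631 CPM (adjusted p = 0.000206).

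RNA decay and surveillance genes act on many noncoding transcripts. Of 16 listed, 11 were tested, with 4 higher, 3 lower and 4 that did not pass, again a share near the 71.5% called over all protein-coding units. RRP4, an exosome subunit, rose from 1.32 ± 1.02 to 3.96 ± 0.639 CPM (adjusted p = 0.00330), RRP6L2, a nuclease of the exosome, rose from 17.9 ± 1.33 to 42.2 ± 2.16 CPM (adjusted p = 5.14e-07), and HEN2, an exosome helicase, rose from 40.1 ± 3.30 to 59.1 ± 4.20 CPM (adjusted p = 0.000593). RRP6L1, a homologue of RRP6L2, rose from 6.63 ± 0.586 to 10.1 ± 1.38 CPM (adjusted p = 0.00762). DCP2, the decapping enzyme, fell from 51.0 ± 2.14 to 19.0 ± 1.46 CPM (adjusted p = 8.68e-08), and UPF3, of nonsense-mediated decay, fell from 104.6 ± 2.37 to 53.0 ± 2.22 CPM (adjusted p = 1.15e-06). VCS, of the same list, fell from 51.3 ± 5.31 to 36.5 ± 0.698 CPM (adjusted p = 0.00166). UPF1 was at 41.3 ± 2.82 and 44.6 ± 4.13 CPM in Light and Dark (adjusted p = 0.408). The part of these genes in the levels of noncoding units was not tested.

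Retroposon-derived SADHU pseudogenes, short noncoding elements spread by retrotransposition, differed among themselves. These genes were picked out by symbol after their values had been seen. SADHU1-2 rose from 18.1 ± 0.639 to 28.7 ± 1.74 CPM (adjusted p = 0.000217), SADHU1-1 fell from 8.92 ± 0.294 to 5.69 ± 0.849 CPM (adjusted p = 0.00544), and SADHU1-3 fell from 1.24 ± 0.140 to 0.416 ± 0.325 CPM (adjusted p = 0.0108). The fall of SADHU1-1 did not pass with library totals (adjusted p = 0.202), and that of SADHU1-3 did not pass without Light replicate 2 (adjusted p = 0.0607) or Light replicate 3 (adjusted p = 0.0587). SADHU4-1 was at 1.75 ± 0.312 in Light and 0.895 ± 0.606 CPM in Dark and did not pass (adjusted p = 0.0581); it did with library totals (adjusted p = 0.0152), with no filter on low counts (adjusted p = 0.0374) and without Dark replicate 1 (adjusted p = 0.00548). Of 10 genes for the silencing of repeats, 5 were tested, with 2 higher, 1 lower and 2 that did not pass, against the same 71.5% called over all protein-coding units. CMT3, a DNA methyltransferase, rose from 7.91 ± 0.889 to 51.5 ± 7.09 CPM (adjusted p = 1.78e-09), DDM1, a chromatin remodeller, rose from 0.625 ± 0.223 to 4.56 ± 0.864 CPM (adjusted p = 3.29e-06), and DRM2, another DNA methyltransferase, fell from 19.2 ± 3.08 to 10.5 ± 0.778 CPM (adjusted p = 0.000177).

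Main sites lay towards the downstream end of the gene, as read in the direction of the reads' strand. In 148 of 279 tested units, or 53.0%, the main site was in the last 20% of the gene, and in 12 units (4.30%) it was in the first 20%. The median distance to the downstream edge was 166 nt, and 114 units ended within 100 nt of it. The last 20% of the gene held the main site of 78.0% of the transcribed pseudogenes, 52.9% of the ncRNA, 48.6% of the misc_RNA, 43.6% of the pseudogene and 41.1% of the lncRNA units. These differences were not tested. A single site dominated in many units: the median share of reads at the main site was 66.8%. Beyond the edges, 402 units had a total of 33718 reads on their strand up to 200 nt past the gene, and 14 of the tested units had more reads there than inside.

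Site usage, the split of reads between the sites of a unit, was tested apart from its level. Of 98 units with at least 2 sites to compare, 20 were called at an adjusted p under 0.05 (20.4%, against 24.3% of all units tested for site usage), and 27 had an unadjusted p under 0.05. Between the 2 main sites of a unit, use moved to the distal site in Light in 8 units and to the proximal site in 12. The test covers all compared sites of a unit. An adjusted p printed beside a distal share below is therefore that of the unit, and the share itself was not tested. In 18 of the 20 the distal shares of the groups did not overlap, which the call itself favours. Also called for level were 15 of the 20, where 66.3% of the noncoding units and 71.4% of all units tested for level were called. Without Light replicate 2, 13 units were called.

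Described first are the 6 largest shifts among called units without overlap and with a mean of at least 10 reads per library at each of the 2 main sites, so their lack of overlap follows from the choice. AT2G46192, an ncRNA gene that overlaps 5 snoRNA genes, showed the largest of these. Its distal site, position 18974019 on chromosome 2, held 27.6, 24.8 and 17.7% of the reads of its 2 main sites in Light and 97.1, 93.1 and 90.9% in Dark. Light libraries used mostly the proximal site, position 18973529, which lies 490 nt upstream and 21 nt beyond a snoRNA edge, and Dark libraries mostly the distal one (change −70.3 percentage points, adjusted p = 3.62e-09). AT2G43375, which overlaps 2 snoRNA genes, also moved to its proximal site in Light (adjusted p = 9.39e-05, sites 971 nt apart). Its distal share was 28.8, 52.8 and 31.0% in Light and 62.5, 70.0 and 66.7% in Dark. The Dark shares rested on few reads, with 6, 3 and 4 at the proximal site and 10, 7 and 8 at the distal site.

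The other 4 of these 6 went to the distal site in Light. The lncRNA AT2G07585, named here after its values were seen, fell short of the read minimum with a mean of 9.5 reads at its distal site; it moved to its proximal site in Light, from 49.3 ± 2.91 to 17.9 ± 6.30% distal (adjusted p = 0.0269). AT5G04880, a transcribed pseudogene of 5730 nt, used its distal site, position 1421379 on chromosome 5, for 70.5, 54.0 and 63.1% in Light and 23.1, 27.3 and 27.5% in Dark (adjusted p = 0.000152). Its summed level overlapped between groups and did not pass (log2 fold change −0.34 ± 0.20, adjusted p = 0.150), but with clusters kept at least 500 nt from protein-coding genes, which leaves out its proximal site, it was higher in Light (log2 fold change 1.31, adjusted p = 0.000999). SADHU1-2 used its distal site for 49.1 ± 3.50% in Light and 17.2 ± 7.59% in Dark (adjusted p = 0.000379), the sites being 197 nt apart; a further 1882 reads lay up to 200 nt past the edge of its gene and were not counted. AT2G18735 moved from 44.1 ± 3.52 to 71.0 ± 3.80% distal (97 nt apart, adjusted p = 0.0142) and AT3G57965 from 37.7 ± 3.80 to 64.5 ± 3.48% (123 nt apart, adjusted p = 0.0107). The last 2 calls were lost without some single libraries: that of AT2G18735 without Dark replicate 1, Light replicate 1, Light replicate 2 or Light replicate 3 (adjusted p = 0.0522 to 0.0888), and that of AT3G57965 without Light replicate 2 or 3 (adjusted p = 0.0796 and 0.0584).

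**Figure D5:**
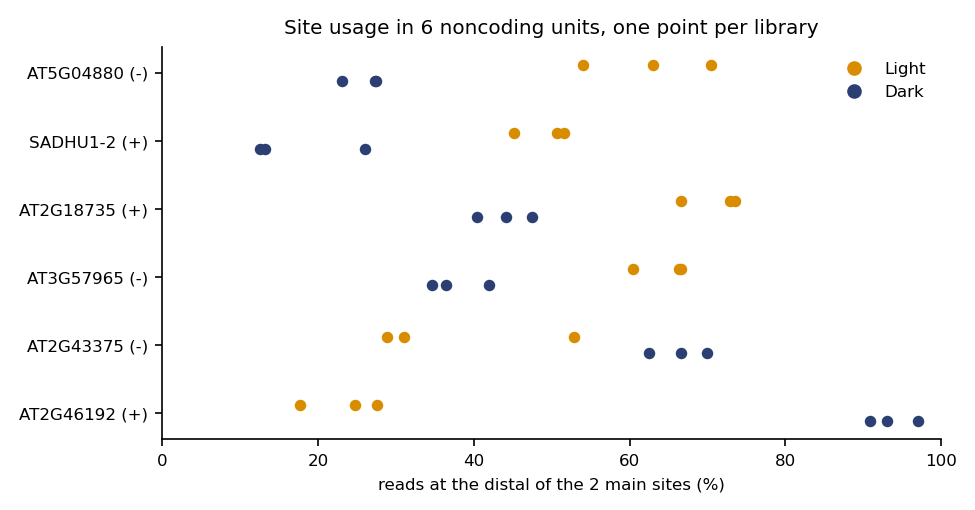
Percent of reads at the distal of the 2 main sites in each library, for the 6 units with the largest called shifts among those without overlap and with a mean of at least 10 reads per library at both sites; strand is in brackets. In AT2G46192 the Light libraries lie between 17.7 and 27.6% and the Dark libraries between 90.9 and 97.1%.

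Strand and neighbourhood added 2 facts. In 3 genes both strands could be tested, and 1 of them changed on both in opposite directions: the minus strand of AT3G27997, a transcribed pseudogene chosen here for that after its values were seen, fell by 2.86 on the log2 scale and its plus strand rose by 1.01. For 162 tested units whose nearest protein-coding gene, from the main site, was also tested, the log2 fold changes of the pair had a Pearson r of 0.34 and a Spearman rho of 0.26. All pairs come from the same 6 libraries, and the genes are not independent. In 75 pairs both were called, 49 of them in the same direction, and the share expected without a link was not computed. The correlation was higher in close pairs. For the 103 pairs under 1000 nt apart r was 0.43, with 33 of 47 called pairs in the same direction. For the 59 pairs over 1000 nt apart r was 0.175 and rho 0.099, with 16 of 28 in the same direction. Strand made little difference. In the 92 pairs read on the same strand r was 0.36, with 28 of 46 called pairs in the same direction. In the 70 pairs on opposite strands r was 0.33, with 21 of 29. Pairs varied: AT3G02832 and ZFN1, which lies 507 nt from its main site and was read on the same strand, rose by 3.54 and 3.70, whereas AT2G14878 fell by 2.50 and AT2G14880, read on the other strand 305 nt from its main site, rose by 1.72.

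Cell-type markers were read to see what the libraries held. The leaf marker RBCS1A rose from 3062 ± 437 to 8446 ± 732 CPM (adjusted p = 1.89e-07), and the summed level of the 3 leaf markers was 7835 to 9259 CPM in Light and 2630 to 3504 CPM in Dark; the other 2, RCA and CAB3, were under 1 CPM in the clusters that could be counted. The 3 genes listed as root markers summed to 1.58 to 3.09 CPM in Light and 0.412 to 0.696 CPM in Dark, with GL2 the one tested and higher. GL2 supplied most of that sum, at 1.63 ± 0.915 CPM in Light and 0.351 ± 0.0542 CPM in Dark, so the sum mainly reports this gene. The 2 epidermal markers summed to 76.3 to 88.6 and 61.5 to 84.5 CPM in Light and Dark, with ATML1 lower (adjusted p = 0.00189) and PDF1 higher (adjusted p = 0.0134) in Light. In the same order, the guard cell marker summed to 4.35 to 5.37 and 3.46 to 4.15 CPM, and the 2 phloem markers to 4.79 to 6.12 and 6.35 to 7.46 CPM. The xylem marker had no counted cluster, and of 2 seed markers OLEO1 had none and CRA1 reached 6.85 CPM in 1 Light library and at most 0.166 CPM in Dark. The part of cell-type make-up in the noncoding results was not tested.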

How the data were processed

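Libraries of 3'READS+, 3 Light and 3 Dark, were analysed from 1 table of raw read counts per poly(A) cluster and strand, deposited by the authors. Reads were aligned with Bowtie2 to TAIR10, per the submitters' processing notes; how clusters were built and whether duplicates were removed is not given in the sources used here. Nuclear counts summed to 13190510 to 14518478 per library. Errors are SDs over libraries; the floor of 3 counts covers counting error only, since reads may include PCR copies. Genes, biotypes and symbols came from a RefSeq gene table (TAIR10.1), which gives no strand and no sequence, so no sequence is shown and a unit's strand is that of its reads; gene edges were set against TAIR10 positions.

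Protein-coding units took clusters inside or within 200 nt of exactly 1 protein-coding gene; 48598 clusters near several, 306 in several noncoding genes and 8287 near none were counted in library totals only. All 29113 units entered 1 fit: filterByExpr (minimum count 10, minimum total 15), TMM, glmQLFit and glmQLFTest (edgeR 4.0.16, R 4.3.3), with Benjamini-Hochberg adjustment over the 13011 tested. TMM factors were 1.13 to 1.16 in Light and 0.836 to 0.904 in Dark, and edgeR estimated a common BCV (biological coefficient of variation) of 0.136. Site usage used diffSpliceDGE with Simes' method on sites with at least 5% of a unit's reads. Shares were tested by exact two-sided permutation over 20 arrangements. Fits were tested on simulated data. Replicates differed by more than sampling noise (chi-square per degree of freedom 6.4 to 29.6 over all units, highest for Dark replicates 1 and 2), so each counted as 1 sample.

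Members, gene lists and rules were chosen with earlier results of these data known. Named units were the 10 largest rises and 10 largest falls among called units without overlap (group mean in the higher group 2 CPM or more), the 6 highest levels, the 2 highest of each biotype, loci of described noncoding RNAs, the 6 largest site shifts without overlap and with a mean of at least 10 reads per library at each site, and up to 4 called genes per pathway list. In the RNA decay list every called gene is named, beyond that limit. The sets near rRNA genes and over snoRNA genes, the SADHU genes, AT3G27997 and AT2G07585 were added after values were seen. Alternatives changed scaling, filter, tool (DESeq2 1.42.0), distance to genes, clusters under 5 reads, strand and each library in turn.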

Additional observations from a re-analysis of the deposited data

How the results depend on the processing

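Of the alternative values for counts and shares, 5 moved further and 66 kept their direction and stayed within 1.5 times the count or within the replicate spread. Without a filter on low counts 94 units were higher. The log2 ratio of Light to Dark of the noncoding share was −1.25, and it was −1.63 in CPM with TMM factors, −0.54 without the most abundant unit and −0.73 without genes near rRNA or over snoRNA genes, an alternative chosen after seeing the data. Leaving out each library in turn gave 13 to 24 units with changed site usage, the 13 without Light replicate 2, and 178 to 203 called for level. AT5G04880 turned from −0.34 to 1.31 on the log2 scale with clusters at least 500 nt from protein-coding genes; its proximal site lies closer than that. Same-numbered Light and Dark libraries correlated at 0.068, 0.006 and 0.084 in their deviations from group means, so the numbers were not taken as pairs; with a replicate block 185 units were called (62 higher, 123 lower), 180 of them shared, and 20 for site usage; under it TAS2 (adjusted p = 0.0324) and SADHU4-1 (adjusted p = 0.0423) gained a call. DESeq2 called 172 (55 higher, 117 lower). For the levels of named units, 698 alternative values kept their call, 8 gained one and 4 lost it; for site usage, 48 kept it and 6 lost it. The snoRNA set had 5 to 20 units higher and 0 lower over its 16 settings; the median of the SADHU genes ranged from −0.60 to 0.39 and that of lncRNA genes from −0.61 to 0.31, so neither has a settled direction. Depth limits the 933 units that could not be tested.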
